A study of Mus musculus with 12 samples.

Results

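The 39 protein-coding Hox genes of the mouse were examined, taken as every row of the count table whose symbol is Hox, a cluster letter from a to d and a paralogue number. They are 39 of 36255 gene rows, and all were kept whatever their count. They lie in 4 clusters of GRCm38, with 11 genes in cluster a on chromosome 6 (52155590 to 52260880), 10 in cluster b on chromosome 11 (96194316 to 96368256), 9 in cluster c on chromosome 15 (102921103 to 103036852) and 9 in cluster d on chromosome 2 (74668310 to 74765142). Gene expression was measured by RNA-seq of polyadenylated RNA from mouse embryos, in a series on Skp1a, an adaptor protein of the SCF class of ubiquitin ligase, and its part in the turnover of the Polycomb complex PRC2. The 11 libraries analysed were 2 labelled Skp1aKO, 2 labelled Skp1acont and 1 labelled Skp1acont PI, all at 9.5 days post coitum (dpc), then 2 labelled wt PI and 2 labelled wt at 9.5 dpc, and 2 labelled wt at 9.0 dpc. The labels spell out neither "cont", "PI" nor the "mb" of the titles, give no strain, promoter or Cre driver for the Skp1a genotypes, and do not say whether the 2 lots of a group are separate embryos. The growth protocol names medium for embryonic stem cells and embryoid bodies, while the tissue is given as embryo. The p-values below thus rest on spread between libraries that may be technical only, and the tissue is described below from its markers.

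Hox genes encode homeodomain transcription factors that give the body axis its regional identity. Within a cluster, genes of low paralogue number are used early and reach forward into the hindbrain, and genes of high number are used late and towards the tail, whereas the midbrain and forebrain are kept free of Hox expression. Silent Hox clusters are held by PRC2, which methylates histone H3, and by the PRC1 complex that binds this mark, and Hox proteins bind DNA together with TALE cofactors of the Pbx and Meis families.

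Total counts ran from 2320599 to 4203553 in the 5 libraries with a Skp1a label and from 3392251 to 11607085 in the 6 wt libraries. Skp1a had a level of 188 and 198 CPM (counts scaled to a common library size, here by the TMM method) for the label Skp1aKO, 309 and 89.0 in those labelled Skp1acont, 275 in Skp1acont PI and 937 to 1410 in the wt libraries. Skp1a thus did not separate the labels Skp1aKO and Skp1acont (log2 fold change -0.04 ± 0.60 SE, edgeR adjusted p = 1.00), and these groups are named by label throughout. Mitochondrial genes took 5.98% to 15.8% of counts in the Skp1a-labelled libraries and 2.44% to 4.01% in wt, with the highest share and the lowest total in Skp1acont replicate 2.

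Hox transcripts were at or near the level of genes that have no known use in an early embryo. The yardstick was the olfactory receptor family (Olfr), which is known from sensory neurons of the nose, with 1408 rows, of which 1398 had an exon length. The 39 Hox genes together took 178 and 189 counts in the libraries labelled Skp1aKO, 96 and 232 in Skp1acont, 100 in Skp1acont PI, 18 and 49 in wt PI, 16 and 26 in wt at 9.5 dpc and 23 and 67 in wt at 9.0 dpc. No Hox gene stood above the 95th percentile of the receptor genes, per kilobase (kb) of exon, in any of the 11 libraries. That limit was far above the receptor background used below, at 1.03 against 0.144 CPM per kb in wt 9.0 dpc replicate 1. In Skp1aKO replicate 1 it was 9.19 against 1.04. Hoxb1 and Hoxa2, at 5.22 and 4.88 times background in wt 9.0 dpc replicate 1, also fell short of it. The limit thus cannot show that a single Hox gene was at background.

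With library totals as the scale, the summed Hox CPM divided by the summed exon length in kb was 0.480 and 0.609 under the label Skp1aKO, 0.222 and 0.972 in Skp1acont, 0.235 in Skp1acont PI, 0.0482 and 0.0426 in wt PI, 0.0458 and 0.0274 in wt at 9.5 dpc and 0.0558 and 0.0561 in wt at 9.0 dpc. Every Skp1a-labelled library was above every wt library, and the Skp1a-labelled libraries spanned a 4.38-fold range among themselves. The receptor genes were also higher in every Skp1a-labelled library than in any wt library. Their summed level over the lowest 90% of them by mean level (1258 genes) was 1.04 and 1.23 CPM per kb in the libraries labelled Skp1aKO, 0.452 and 2.02 in Skp1acont, 0.494 in Skp1acont PI and 0.137 to 0.201 in wt, a 4.47-fold range within the Skp1a-labelled libraries. In bulk RNA, fewer cells of a type and less RNA per cell cannot be told apart.

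**Figure D1:**
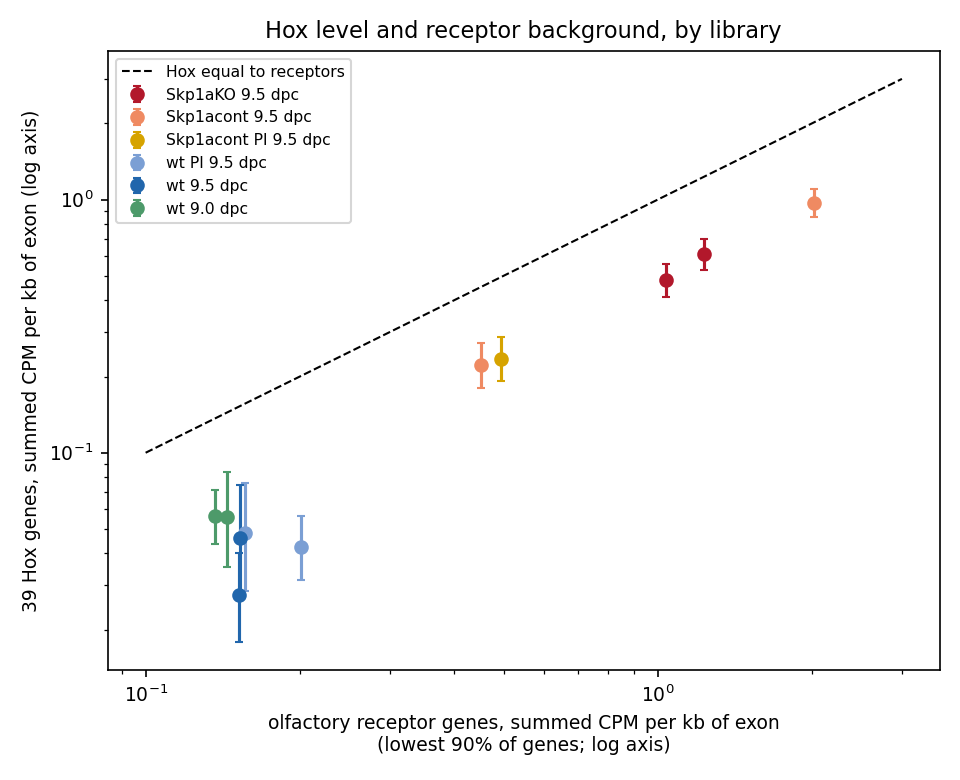
Summed level of the 39 Hox genes (vertical axis, CPM per kb of exon, log axis) against that of the lowest 90% of olfactory receptor genes (horizontal axis, same unit, log axis), 1 point per library, with exact 95% Poisson intervals of the Hox counts as bars and equality as a dashed line. All 11 libraries lie below the line, and the 5 Skp1a-labelled libraries run parallel to it, at ratios of 0.462 to 0.494.

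The ratio of Hox genes to these receptor genes was 0.462 and 0.494 in the libraries labelled Skp1aKO, 0.491 and 0.481 in Skp1acont and 0.477 in Skp1acont PI, against 0.308 and 0.212 in wt PI, 0.300 and 0.180 in wt at 9.5 dpc and 0.387 and 0.410 in wt at 9.0 dpc. The 5 Skp1a-labelled ratios differed 1.07-fold, less than their own counting intervals (0.397 to 0.535 in the first Skp1aKO library), although the levels behind them differed 4.38-fold. All 5 were above the 6 wt ratios, whose counting intervals reach from 0.117 to 0.581, so in relation to receptors the groups stood closer than in level. The 90% limit was chosen after the data were seen, because Olfr907 alone took 18.0% to 40.6% of receptor counts in the Skp1a-labelled libraries and 9.57% to 29.3% in wt. Against the sum over all 1398 receptor genes the ratio was 0.0830 and 0.138 in the libraries labelled Skp1aKO, 0.0842 and 0.123 in Skp1acont, 0.0717 in Skp1acont PI and 0.0490 to 0.123 in wt, with the groups overlapping. Against the receptor median it was 0.826 to 0.913 in the Skp1a-labelled libraries and 0.267 to 0.943 in wt, again overlapping.

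More Hox genes were detected in each Skp1a-labelled library than in any wt library. Of the 39 Hox genes, 34 and 35 had a count in the libraries labelled Skp1aKO, 26 and 35 in Skp1acont and 30 in Skp1acont PI, against 10 and 18 in wt PI, 9 and 13 in wt at 9.5 dpc and 10 and 17 in wt at 9.0 dpc. The share of Hox genes at 0 was 10.3% to 33.3% in the Skp1a-labelled libraries and 53.8% to 76.9% in wt, beside 9.37% to 22.8% and 20.2% to 48.3% of receptor genes. A count of 0 allows up to 3 counts, which is 0.580 to 0.779 CPM in the Skp1a-labelled libraries and 0.339 to 1.11 CPM in wt, for counting error only. Above the receptor median of their library stood 10 and 11 Hox genes in the libraries labelled Skp1aKO, 13 and 12 in Skp1acont, 8 in Skp1acont PI and 3 to 9 in wt. Hoxa6 and Hoxc12 had no count in any of the 11 libraries, among 60319265 counts in all, and 24 of the 39 genes had none in either wt library at 9.5 dpc.

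**Figure D2:**
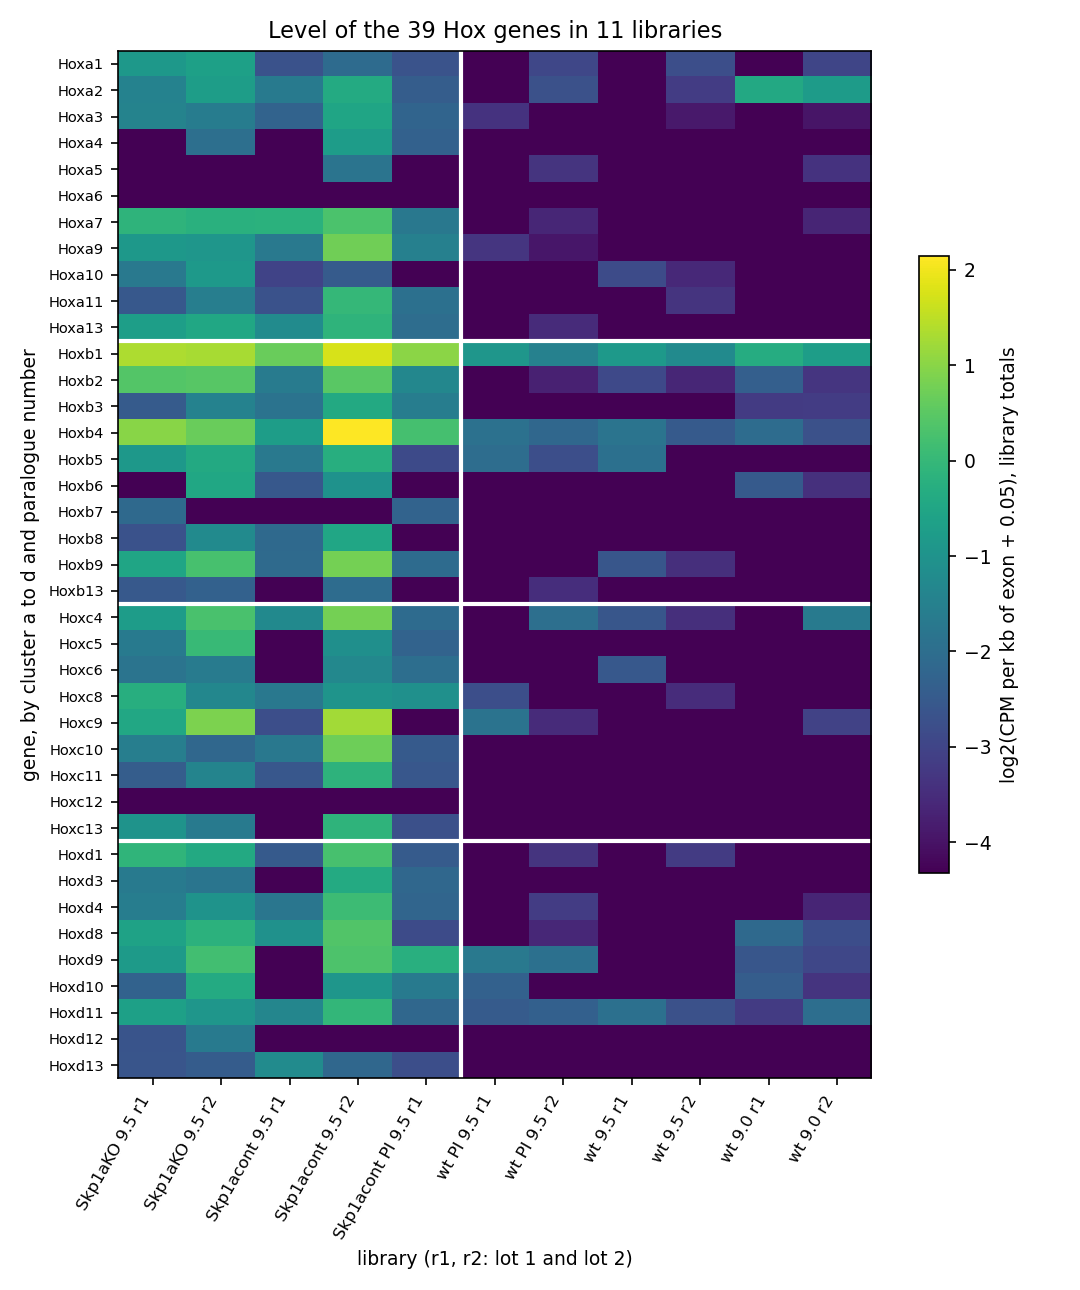
Level of each of the 39 Hox genes (rows, by cluster and paralogue number) in each of the 11 libraries (columns), as log2 of CPM per kb of exon plus 0.05, with library totals as the scale. The darkest colour is a count of 0. Hoxb1 is above 0 in every column, most rows are dark in the 6 wt columns, and Hoxa2 is brighter in both wt columns at 9.0 dpc than in the other wt columns.

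Hox and receptor genes also differ in ways that the symbols do not fix. The longest transcripts of the 39 Hox genes had a median GC content of 53.5%, against 39.3% in the 1398 receptor genes, and the median exon length was 2472 bases for Hox genes and 2577 for receptors. Across the 39 Hox genes, the correlation of count with exon length was weak, with Pearson's r from 0.271 to 0.460 in the Skp1a-labelled libraries and from -0.06 to 0.173 in wt (genes of 1 library share its depth, and r is a description). RefSeq promoter windows of 300 bases on GRCm38.p6 were at hand for 22 of the 39 genes (24 windows), with a median of 14.5 CG dinucleotides, against 7 over all 32851 windows.

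Of the 3 paralogue classes, numbers 1 to 4 stood highest over the receptor background in 10 of 11 libraries, the first wt PI library being the exception. Paralogues 1 to 4 stood at 0.656 and 0.601 times the receptor background (the lowest 90%, per kb) in the libraries labelled Skp1aKO, 0.646 and 0.631 in Skp1acont, 0.767 in Skp1acont PI, 0.344 and 0.335 in wt PI, 0.430 and 0.358 in wt at 9.5 dpc and 0.821 and 0.808 in wt at 9.0 dpc. Both wt libraries at 9.0 dpc were therefore above the Skp1a-labelled libraries here, while the other 4 wt libraries were below them. Paralogues 5 to 9, which pattern the neck and thorax, stood at 0.397 to 0.547 times background in the Skp1a-labelled libraries and 0.0371 to 0.367 in wt. These values did not overlap, but those of wt rest on 2 to 13 counts per library and carry no interval. Paralogues 10 to 13, which pattern the lumbosacral axis and the limbs, stood at 0.222 to 0.348 times background in the Skp1a-labelled libraries and 0.121 to 0.269 in wt, with overlap. Cluster a stood at 0.334 to 0.494 times background in the Skp1a-labelled libraries and 0.0624 to 0.326 in wt. Here too the values did not overlap, with 1 to 16 counts per wt library and no interval. Cluster b stood at 0.680 to 0.838 times background in the Skp1a-labelled libraries and 0.304 to 0.855 in wt, cluster c at 0.279 to 0.532 and 0 to 0.303, and cluster d at 0.375 to 0.410 and 0.143 to 0.429, each with overlap.

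Hoxb1 (ENSMUSG00000018973.2, chr11:96365752-96368256, plus strand), which gives rhombomere 4 of the hindbrain its identity, was the only Hox gene above the receptor background in all 11 libraries. Its promoter and that of Hoxa2 are shown because Hoxb1 stood above background in all libraries and Hoxa2 only in those of wt at 9.0 dpc. Both windows hold a match to TGATNNAT, a form of the site that Hox and Pbx proteins bind together, and the match is in capitals. In RefSeq coordinates of GRCm38.p6, the Hoxb1 window is chr11:96365508-96365807 on the plus strand, with the match starting 162 bases before the annotated start. The Hoxa2 window is chr6:52164782-52165081 on the minus strand, with the match on its opposite strand, 111 bases before the start.
Hoxb1: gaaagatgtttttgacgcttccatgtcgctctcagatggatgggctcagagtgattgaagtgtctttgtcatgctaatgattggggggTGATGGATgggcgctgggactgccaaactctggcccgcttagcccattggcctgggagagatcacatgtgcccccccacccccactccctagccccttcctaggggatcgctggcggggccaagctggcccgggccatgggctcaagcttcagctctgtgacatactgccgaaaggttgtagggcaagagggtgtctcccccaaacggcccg
Hoxa2: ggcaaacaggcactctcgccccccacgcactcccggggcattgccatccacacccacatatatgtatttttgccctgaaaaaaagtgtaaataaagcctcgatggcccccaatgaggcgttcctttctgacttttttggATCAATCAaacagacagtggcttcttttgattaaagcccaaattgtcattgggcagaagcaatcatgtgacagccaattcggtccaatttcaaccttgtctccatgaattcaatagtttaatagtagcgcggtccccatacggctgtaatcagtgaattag
Searched on both strands, the motif was in 4 of the 24 Hox windows (16.7%; Hoxb1, Hoxa2, Hoxb8 and Hoxd11) and in 2906 of all 32851 windows (8.85%), which describes letters and not binding.

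Hoxb1 had 21 and 17 counts in the libraries labelled Skp1aKO, 15 and 18 in Skp1acont, 19 in Skp1acont PI, 4 and 8 in wt PI, 4 and 8 in wt at 9.5 dpc and 7 and 15 in wt at 9.0 dpc. Scaled, it averaged 3.88 ± 0.528 CPM under the label Skp1aKO, 3.79 ± 1.25 in Skp1acont, 1.16 ± 0.370 in wt PI, 1.31 ± 0.243 in wt at 9.5 dpc and 2.17 ± 0.424 in wt at 9.0 dpc (SD, n = 2 each), and was 3.75 CPM in the Skp1acont PI library. Every Skp1a-labelled library was above every wt library in this scale. Over the receptor background of its own library it stood at 1.65 to 4.01 in the Skp1a-labelled libraries and 1.53 to 5.22 in wt, and the groups overlapped. It exceeded 78.3% to 88.8% of receptor genes per kb in the Skp1a-labelled libraries and 74.5% to 92.4% in wt. The difference from wt at 9.5 dpc was 3.16-fold in the libraries labelled Skp1aKO (95% counting interval 1.62 to 6.64) and did not pass the test (log2 1.60 ± 0.60 SE, edgeR adjusted p = 0.0685).

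**Figure D3:**
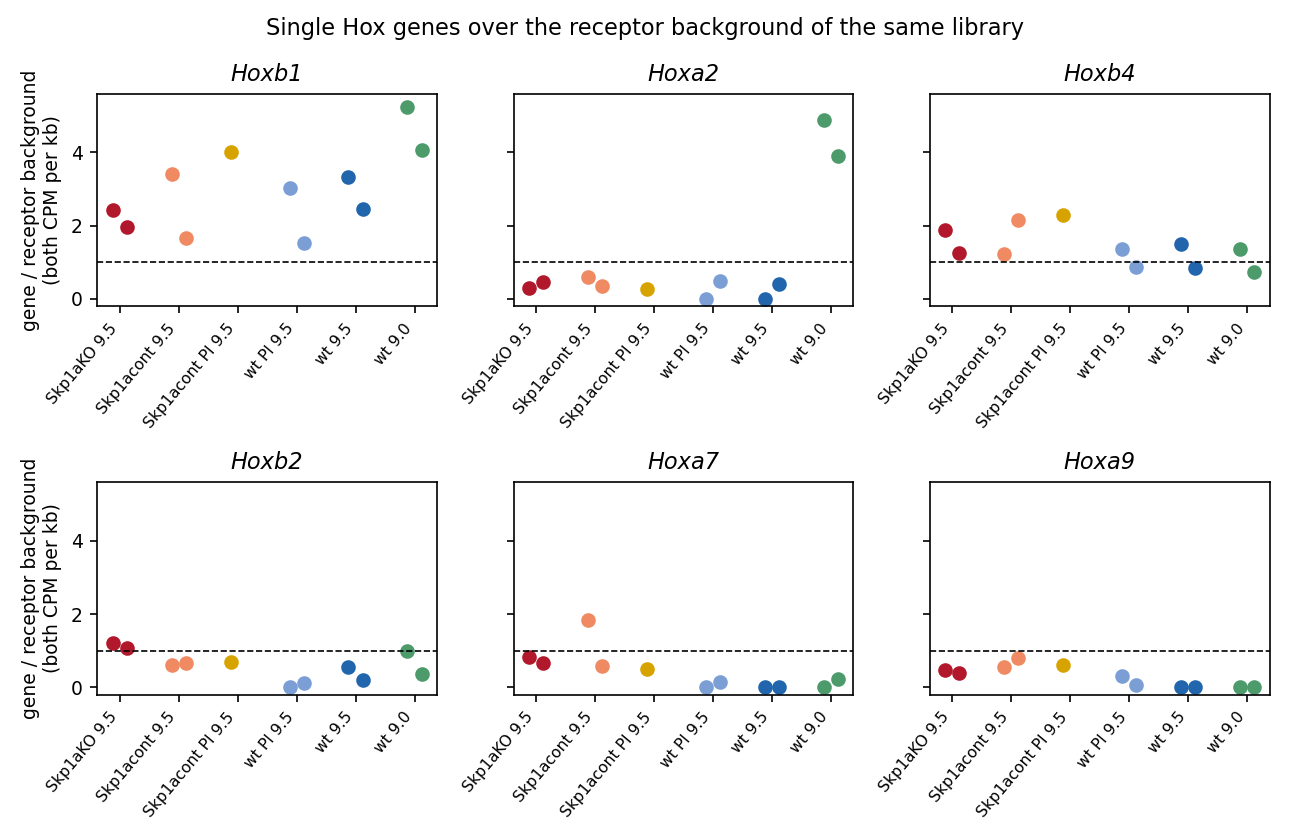
Level of 6 Hox genes divided by the receptor background of the same library (lowest 90% of olfactory receptor genes, both in CPM per kb of exon; dashed line at 1), 1 point per library, groups from Skp1aKO on the left to wt at 9.0 dpc on the right. Hoxb1 is above the line in all 11 libraries, Hoxa2 in the 2 wt libraries at 9.0 dpc, and Hoxb4 in 8 of 11. Hoxa9 is below it in all 11, with 0 in 4 wt libraries.

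Between the libraries labelled Skp1aKO and wt at 9.5 dpc, 7 Hox genes were called higher and 0 lower of the 37 with any count (18.9%; edgeR's quasi-likelihood test, Benjamini-Hochberg adjusted p under 0.05 over 33877 genes). Of all genes, 9.45% were called higher and 9.12% lower, and of the olfactory receptor genes 338 of 1390 were called higher (24.3%) and 0 lower. The share of Hox genes called was therefore above that of all genes and below that of the receptors. The 7 were Hoxb2, Hoxa7, Hoxd8, Hoxa9, Hoxc9, Hoxd9 and Hoxa13, and all but Hoxb2 had no count in either wt library of this stage.

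Of the anterior genes, Hoxb2, which acts in rhombomeres 3 to 5 and is a target of Hoxb1, had 16 and 14 counts in the libraries labelled Skp1aKO and 1 and 1 in wt at 9.5 dpc. Counts elsewhere were 4 and 11 in Skp1acont, 5 in Skp1acont PI, 0 and 1 in wt PI and 2 and 2 in wt at 9.0 dpc. On the scaled level it had 3.24 and 2.89 CPM under the label Skp1aKO, close to Skp1acont replicate 2 at 2.86, and all 5 Skp1a-labelled libraries were above the 6 wt libraries. Hoxb2 was 15.0-fold higher than in wt (95% counting interval 3.80 to 129; edgeR adjusted p = 0.0183), and 3.87-fold when both groups were scaled to their receptor counts. Exons of Hoxb2 overlap those of Hoxb3os on the other strand over 27.3% of their length, and since strand use in counting is not given in the sources used here, reads of these genes cannot be told apart.

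The middle genes of the list, which pattern the thorax, were named by Hoxa7, Hoxa9, Hoxc9, Hoxd8 and Hoxd9. Hoxa9, also a regulator of blood stem cells, had 10 and 8 counts in the libraries labelled Skp1aKO and 0 and 0 in wt at 9.5 dpc. Elsewhere it had 6 and 21 in Skp1acont, 7 in Skp1acont PI, 1 and 1 in wt PI and 0 and 0 in wt at 9.0 dpc. Hoxa7 acts in patterning of the thoracic vertebrae. Hoxa7 had 9 and 7 counts in the libraries labelled Skp1aKO and 0 and 0 in wt at 9.5 dpc. In the remaining libraries it had 10 and 8 in Skp1acont, 3 in Skp1acont PI, 0 and 1 in wt PI and 0 and 1 in wt at 9.0 dpc. Both genes were above every wt library in all 5 Skp1a-labelled libraries. Hoxa9 was at least 5.99-fold and Hoxa7 at least 5.32-fold higher, taking 3 counts over the wt group as its limit (edgeR adjusted p = 0.0171 and 0.0122), and these bounds were 1.55-fold and 1.38-fold when scaled to receptors. Hoxa9 never exceeded the receptor background per kb, and reached 0.803 times it at most.

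Hoxc9, which sets the identity of thoracic motor neurons, had 6 and 13 counts in the libraries labelled Skp1aKO and 0 and 0 in wt at 9.5 dpc. Counts elsewhere were 1 and 13 in Skp1acont, 0 in Skp1acont PI, 2 and 1 in wt PI and 0 and 2 in wt at 9.0 dpc. Here the Skp1a-labelled libraries overlapped wt, since the Skp1acont PI library had none. Hoxd8 had 6 and 7 counts in the libraries labelled Skp1aKO and 0 and 0 in wt at 9.5 dpc. Elsewhere it had 5 and 8 in Skp1acont, 1 in Skp1acont PI, 0 and 1 in wt PI and 2 and 3 in wt at 9.0 dpc. The Skp1acont PI library lay within the range of wt here too. Hoxd9, which acts with Hoxa9 in the upper forelimb, had 4 and 7 counts in the libraries labelled Skp1aKO and 0 and 0 in wt at 9.5 dpc. In the remaining libraries it had 0 and 6 in Skp1acont, 7 in Skp1acont PI, 2 and 5 in wt PI and 1 and 2 in wt at 9.0 dpc. Hoxd9 overlapped as well, since Skp1acont replicate 1 had none. Against the same limit of 3 counts over wt at 9.5 dpc, Hoxc9 was 6.32-fold, Hoxd8 4.33-fold and Hoxd9 3.66-fold higher in the libraries labelled Skp1aKO (edgeR adjusted p = 0.0305, 0.0187 and 0.0494). Scaled to receptors, the bounds were 1.63-fold, 1.12-fold and 0.946-fold.

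Of the posterior genes, Hoxa13, which patterns digits and the urogenital tract, was called with 5 and 5 counts in the libraries labelled Skp1aKO and 0 and 0 in wt at 9.5 dpc. The others had 4 and 5 in Skp1acont, 2 in Skp1acont PI, 0 and 1 in wt PI and 0 and 0 in wt at 9.0 dpc. Against the limit of 3 counts it was 3.33-fold higher than in wt at 9.5 dpc (edgeR adjusted p = 0.0331), and this bound was 0.860-fold when scaled to receptors. Hoxd11, which patterns the forearm together with Hoxa11, was not called (edgeR adjusted p = 0.421), with 9 and 6 counts in the libraries labelled Skp1aKO, 6 and 9 in Skp1acont, 3 in Skp1acont PI, 2 and 7 in wt PI, 3 and 4 in wt at 9.5 dpc and 1 and 10 in wt at 9.0 dpc. Its Skp1a-labelled and wt libraries overlapped.

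Over the 37 Hox genes the median log2 fold change between the libraries labelled Skp1aKO and wt at 9.5 dpc was 3.34, beside 2.0 over the receptors and 0.58 over all genes. Such fitted values depend on a prior count where a group is at 0. Over the genes with more than 3 counts in either group, and with genes at 0 set to their bound, the median was 2.0 for 28 Hox genes, 1.85 for 1064 receptors and 0.41 over 23498 genes. At 0 in 1 group were 14 of these Hox genes, 132 of the receptors and 3227 of all genes. Such genes passed the limit of 3 counts only through the group where they are high, so the medians are a description and no support for a difference. On the same bounds scaled to receptor counts, the medians were 0.05 for Hox genes and -0.11 for receptors. Scaling the fit to receptor counts left 3 Hox genes called (Hoxa7, Hoxa9 and Hoxc9), and subtracting the background from the counts left 0 of the 21 that kept a count (edgeR; 4 at an unadjusted p under 0.05), while library totals gave 17. The median over all genes also moved, to 1.5 with library totals and -0.61 with receptor scaling. Here and with single libraries left out, the Hox counts are not set against the share of all genes called in the same fit. DESeq2 called 5 of the 14 it gave an adjusted p. The count was 2 (Hoxa9 and Hoxc9) without Skp1aKO replicate 1, 2 (Hoxa7 and Hoxa9) without Skp1aKO replicate 2 and 19 without Skp1acont replicate 2. It was 4 once the first wt library was left out and 0 once the second was.

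**Figure D4:**
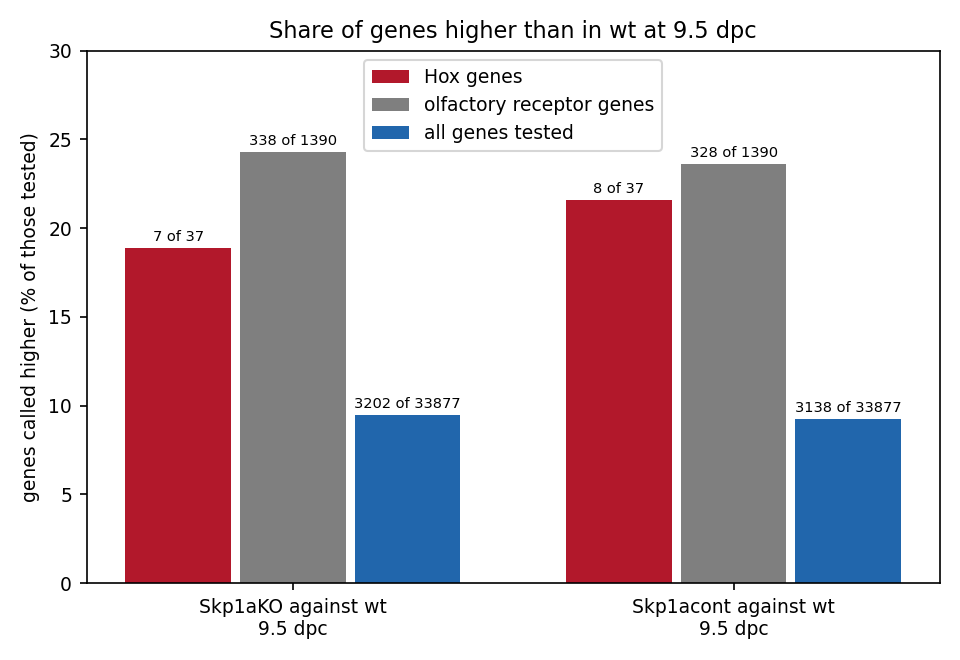
Share of genes called higher than in wt at 9.5 dpc (vertical axis, percent of genes tested, from 0) for the libraries labelled Skp1aKO on the left and Skp1acont on the right, with the counts above the bars. In both comparisons the Hox share, 18.9% and 21.6%, lies between that of all genes, 9.45% and 9.26%, and that of the olfactory receptors, 24.3% and 23.6%.

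The libraries labelled Skp1acont differed from wt at 9.5 dpc in a similar number of Hox genes, with 8 of 37 called higher (21.6%) and 0 lower, where 9.26% of all genes were called higher and 7.46% lower, and 328 of 1390 receptors higher (23.6%). Both comparisons use the same wt libraries. Hoxa7, Hoxa9, Hoxa13, Hoxc9 and Hoxd8 were called in both, at bounds of 6.49-fold, 9.73-fold, 3.24-fold, 5.04-fold and 4.68-fold here, with edgeR adjusted p of 0.0105, 0.00925, 0.0367, 0.0408 and 0.0184. Hoxb3, Hoxb4 and Hoxd4 were called here and not for Skp1aKO, and Hoxb2 and Hoxd9 the other way round. Calls in 1 comparison and not the other do not show a difference between the labels, which is tested below.

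Hoxb4, used in the posterior hindbrain and spinal cord, had 6 and 26 counts in the libraries labelled Skp1acont and 2 and 3 in wt at 9.5 dpc. Counts elsewhere were 18 and 12 in Skp1aKO, 12 in Skp1acont PI, 2 and 5 in wt PI and 2 and 3 in wt at 9.0 dpc. The 5 Skp1a-labelled libraries, at 1.16 to 6.75 CPM, were above the 6 wt libraries, at 0.375 to 0.739 CPM. The fold was 6.92 (95% counting interval 2.68 to 22.7; edgeR adjusted p = 0.0370), and 1.87 when scaled to receptors. The lowest and the highest of the 5 were both labelled Skp1acont, and those labelled Skp1aKO lay between them, at 3.65 and 2.48 CPM.

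Hoxb3, a gene of the posterior hindbrain, had 4 and 7 counts in the libraries labelled Skp1acont and 0 and 0 in wt at 9.5 dpc. Elsewhere it had 2 and 4 in Skp1aKO, 5 in Skp1acont PI, 0 and 0 in wt PI and 1 and 3 in wt at 9.0 dpc. All 5 Skp1a-labelled libraries were above the 6 wt libraries on the scaled level, for Hoxb3 as for the next gene. Hoxd4, the cluster d partner of Hoxb4, had 3 and 7 counts in the libraries labelled Skp1acont and 0 and 0 in wt at 9.5 dpc. In the remaining libraries it had 3 and 4 in Skp1aKO, 2 in Skp1acont PI, 0 and 2 in wt PI and 0 and 1 in wt at 9.0 dpc. Against the limit of 3 counts over wt at 9.5 dpc, Hoxb3 was 3.96-fold and Hoxd4 3.60-fold higher (edgeR adjusted p = 0.0279 and 0.0348). Exons of other genes overlap 52.9% of the exon length of Hoxb3 and 52.3% of that of Hoxd4, so their counts are uncertain. Hoxc4 of the same paralogue group was not called, with 4 and 10 counts in the libraries labelled Skp1acont, 5 and 9 in Skp1aKO, 2 in Skp1acont PI, 0 and 6 in wt PI, 1 and 1 in wt at 9.5 dpc and 0 and 8 in wt at 9.0 dpc. Its Skp1a-labelled and wt libraries overlapped.

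The median log2 fold change over the 37 Hox genes was 3.36 between the libraries labelled Skp1acont and wt at 9.5 dpc, beside 2.04 over receptors and 0.60 over all genes. With genes at 0 at their bound it was 2.17 over 26 Hox genes and 1.85 over 1024 receptors, and 0.28 and -0.04 when scaled to receptor counts. Of these, 14 Hox genes and 120 receptors were at 0 in 1 group and had passed the limit of 3 counts through the other alone. Receptor scaling of the fit left Hoxa7 and Hoxa9 called, subtraction of the receptor median left Hoxb4, and a fit of these groups alone left Hoxa7 and Hoxa9. The median over all genes became 1.47 with library totals and -0.43 with receptor scaling. For these fits and those with a library left out, the share of all genes called is not set beside the Hox count. Library totals gave 17, and DESeq2 called 6 of the 17 it gave an adjusted p. The count was 21 without Skp1acont replicate 1 and 5 without Skp1acont replicate 2. It was 2 once the first wt library was left out and 0 once the second was.

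Hox genes did not separate the labels Skp1aKO and Skp1acont. None of 37 was called by edgeR, 0 had an unadjusted p under 0.05, and the lowest adjusted p was 0.898, where 0.0059% of all genes were called higher and 0.00886% lower. The DESeq2 Wald test called 0 as well, but gave none of the 37 an adjusted p. The median Hox log2 fold change was 0.01. The spread within the label Skp1acont was larger than the difference between labels, with 96 and 232 Hox counts in Skp1acont around the 178 and 189 of Skp1aKO. Without Skp1acont replicate 2, Hoxd9 was called higher in the libraries labelled Skp1aKO, the lone Skp1acont library having no Hoxd9 count, and the median Hox log2 fold change became 0.93, beside 1.05 over receptors.

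With the PI label, 0 of 37 Hox genes were called between the Skp1acont PI library and wt PI (edgeR; 0 also by DESeq2, which gave 1 of them an adjusted p), and 0.198% of all genes were called higher and 0.165% lower. Over the 37 Hox genes the log2 fold change had a median of 1.91, beside 0.48 over receptors and 0 over all genes. With genes at 0 at their bound and scaled to receptor counts it was 1.20 over the 11 Hox genes with more than 3 counts in either group, and -0.03 over 822 receptors. Of these, 1 Hox gene and 56 receptors were at 0 in 1 group. The 11 Hox genes had 70 counts in the lone Skp1acont PI library and 51 in wt PI. Genes can pass the limit of 3 counts only through the group where they are high, so this median too is a description and no support for a difference. An unadjusted p under 0.05 was reached by 4, Hoxa9, Hoxb1, Hoxb2 and Hoxb3, with a lowest adjusted p of 0.168. Hoxb1 stood at 3.75 CPM in the Skp1acont PI library against 1.43 and 0.903 CPM in wt PI, a ratio of 3.64 (95% counting interval 1.68 to 8.22). The lone library is assumed to vary like the other groups. Without Skp1acont replicate 2 the calls changed, and the share of all genes called in that fit is not set beside them. There the median log2 fold change was 1.93 over Hox genes, 0.49 over receptors and 0 over all genes. Between wt PI and wt at 9.5 dpc 0 of 37 were called (edgeR; 0 also by DESeq2, which gave none an adjusted p), where 0.0384% of all genes were called higher and 0.0413% lower, and Hoxd9 alone had an unadjusted p under 0.05, with 2 and 5 counts in wt PI and 0 and 0 in wt at 9.5 dpc (edgeR adjusted p = 0.913). The effect of the PI label did not differ detectably between Skp1acont and wt for any of the 37 genes in a test of the interaction (edgeR, 0 called, with 1 call among all genes).

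Between the stages, Hoxa2 (ENSMUSG00000014704.10, chr6:52162417-52164831, minus strand) stood apart. It has the most anterior limit of all Hox genes in the hindbrain and selects the identity of the second pharyngeal arch. It is named here outside the rule on abundance, after its values were seen. Hoxa2 had 0 and 1 counts in wt at 9.5 dpc and 5 and 11 in wt at 9.0 dpc, with 2 and 3 in Skp1aKO, 2 and 3 in Skp1acont, 1 in Skp1acont PI and 0 and 2 in wt PI. Both libraries at 9.0 dpc, at 1.77 and 1.38 CPM, were above the other 9, which reached at most 0.779 CPM. Over the receptor background it stood at 4.88 and 3.90 in wt at 9.0 dpc and at 0.593 or less in the other 9, and at 9.0 dpc it exceeded 91.6% and 91.1% of receptor genes per kb.

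The ratio of Hoxa2 at 9.5 dpc to that at 9.0 dpc was 0.0694 (95% counting interval 0.00165 to 0.447), on 1 and 16 counts. It did not pass the test over all genes (log2 -3.65 ± 1.18 SE, edgeR adjusted p = 0.287). Over all Hox genes 0 were called between 9.5 and 9.0 dpc (edgeR, 3 at an unadjusted p under 0.05, the others being Hoxb3 and Hoxd8; DESeq2 called 0 of the 5 it gave an adjusted p), where 0.596% of all genes were called higher and 0.162% lower. Hoxa2 was called lower at 9.5 dpc in the fit of the 2 wt groups alone and in the fit without Skp1acont replicate 2. Hoxb1 had a ratio of 0.606 between the stages (95% counting interval 0.273 to 1.28; edgeR adjusted p = 0.949). Hindbrain markers summed to 7.0 and 9.6 CPM at 9.5 dpc and 26.5 and 21.9 CPM at 9.0 dpc, with Gbx2 at 2.96 and 5.11 CPM at 9.5 dpc and 15.6 and 15.4 at 9.0 dpc, and with 0 of the 7 called. Their part in the Hoxa2 values was not tested.

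Read as separation of libraries, 33 of 37 Hox genes had both libraries labelled Skp1aKO above both wt libraries at 9.5 dpc (89.2%), beside 70.8% of receptor genes and 40.6% of all genes. For Skp1acont it was 23 of 37 (62.2%), beside 56.5% of receptors and 32.4% of all genes. All 5 Skp1a-labelled libraries were above all 6 wt libraries for 16 of 37 Hox genes (43.2%), 28.5% of receptors and 13.6% of all genes. These 16 came from every part of the clusters, with Hoxb1, Hoxd1, Hoxb2, Hoxa3, Hoxb3, Hoxb4 and Hoxd4 among paralogues 1 to 4, Hoxa7, Hoxc8, Hoxa9 and Hoxb9 among 5 to 9, and Hoxc10, Hoxa11, Hoxc11, Hoxa13 and Hoxd13 among 10 to 13. The scale was TMM-scaled CPM, and over the receptor background Hoxb1 overlapped. Some rest on few counts, with 8 for Hoxd13, 9 for Hoxc11, 11 for Hoxa11 and 13 for Hoxc10 over all 5 libraries. Hoxd13 averaged 0.205 CPM under the label Skp1aKO, where a 0 in wt allows 0.339 to 1.11 CPM.

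Genes whose products act on the Hox clusters were taken from lists of known members. Of 13 PRC2 genes, 3 were called lower and 0 higher between the libraries labelled Skp1aKO and wt at 9.5 dpc (Eed, Rbbp7 and Mtf2), with a median log2 fold change of -1.23 that was also negative with DESeq2 size factors (-0.87), library totals (-0.29) and receptor scaling (-3.19). The split of calls turned with library totals, to 4 higher and 1 lower, while receptor scaling gave 0 higher and 9 lower. These scalings moved the median of all genes from 0.58 to 0.94, 1.5 and -0.61. Eed, the subunit that reads the methylated histone, had 30.8 and 36.4 CPM under the label Skp1aKO, against 128 and 150 CPM in wt at 9.5 dpc (log2 -2.05 ± 0.47 SE, edgeR adjusted p = 0.00821). The catalytic subunit Ezh2 had 147 and 157 CPM under the label Skp1aKO, against 467 and 468 CPM in wt, and did not pass (edgeR adjusted p = 0.0508), nor did Suz12 (adjusted p = 0.0884). For Skp1acont 4 of the 13 were lower (Ezh2, Eed, Suz12 and Aebp2) and 2 higher (Ezh1 and Phf19). Between Skp1aKO and Skp1acont 0 of the 13 were called. Of all genes, 9.45% were higher and 9.12% lower for Skp1aKO and 9.26% and 7.46% for Skp1acont. The main-fit counts of this and the following lists are to be read against these shares. Counts from other scalings, or with a library left out, are not, since the share of all genes called can change between fits. That share is given below for 1 such fit only, so the other counts show only how far a list moved. The PRC2 counts rested on single libraries. For Skp1aKO they became 4 higher and 9 lower without Skp1acont replicate 2, where 6922 and 6647 of 33324 genes were called, 0 and 1 without Skp1aKO replicate 2 or wt replicate 1, and 0 and 0 without Skp1aKO replicate 1 or wt replicate 2. For Skp1acont they became 3 and 9 without Skp1acont replicate 1, 2 and 7 without Skp1acont replicate 2, and 0 and 0 without either wt library.

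Of 20 PRC1 genes, 3 were lower and 1 higher in the libraries labelled Skp1aKO and 4 lower and 1 higher in Skp1acont, both against wt at 9.5 dpc, and Bmi1 was lower in both, with log2 fold changes of -2.78 and -2.91. The 1 of 20 higher is below the share of all genes. Without Skp1acont replicate 2 the PRC1 counts were 2 higher and 8 lower for Skp1aKO and 4 and 6 for Skp1acont, and without Skp1acont replicate 1 they were 2 and 11 for Skp1acont. Leaving out wt replicate 2 gave 0 and 1 in either comparison. The median of this list was -0.38 and -0.36, and was positive with library totals, at 0.54 and 0.43. Of the 9 TALE cofactors, Pbx3 and Pknox2 were lower in the libraries labelled Skp1aKO and Pbx3 in Skp1acont, and of 18 activators 3 were higher in each comparison, the histone demethylase gene Kdm6b and the retinoic acid receptor genes Rarb and Rarg. Neither split held without single libraries. Without Skp1acont replicate 2 the counts for Skp1aKO were 1 higher and 5 lower TALE genes and 5 higher and 4 lower activators, and without Skp1acont replicate 1 those for Skp1acont were 2 and 7, and 5 and 7. Without either wt library 0 of both lists were called for Skp1acont, and for Skp1aKO 1 activator was higher when either Skp1aKO or either wt library was left out. With receptor scaling 0 of these activators were higher, in either comparison. Rarb and Rarg were as low as the Hox genes, with Rarb at 1.82 and 1.65 CPM under the label Skp1aKO, against 0 and 0.142 CPM in wt at 9.5 dpc. The Cdx genes, which activate Hox genes in the trunk, reached at most 1.56 CPM in any library. Of the cluster neighbours, 9 of the 21 listed were tested, and in both comparisons Evx1, beside Hoxa13, was higher and Mtx2, Lnpk and Snx10 were lower. Evx1 was as low as the Hox genes, at 1.42 and 1.03 CPM under the label Skp1aKO and 1.16 and 1.04 in Skp1acont. In wt it was at 0 in both libraries at 9.5 dpc and at 0.707 and 0.500 CPM at 9.0 dpc. The splits of these lists turned with the scaling, since library totals gave 2 higher and 0 lower TALE genes and 3 higher and 0 lower neighbours for Skp1aKO, and receptor scaling 0 higher with 7 and 5 lower.

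Markers of midbrain and forebrain were high in all 11 libraries and those of hindbrain and trunk mostly low. Otx2, a determinant of midbrain and forebrain, had 183 and 170 CPM under the label Skp1aKO, 225 and 77.9 in Skp1acont, 215 in Skp1acont PI, 202 and 200 in wt PI, 266 and 282 in wt at 9.5 dpc and 115 and 151 in wt at 9.0 dpc. En1, En2 and Pax5, which mark midbrain and the isthmus, reached 11.8 CPM or more in each library. The 13 midbrain and forebrain markers summed to 201 to 454 CPM in the Skp1a-labelled libraries and 253 to 447 in wt, with 4 called higher and 0 lower between Skp1aKO and wt at 9.5 dpc. The 7 hindbrain markers summed to 7.9 to 12 CPM in the Skp1a-labelled libraries and 7.0 to 26.5 in wt. Of the trunk, tail bud and limb list the sums were 50.1 to 65.7 CPM and 42.7 to 87.6 CPM, with Pax3, which the dorsal midbrain also uses, at 22.1 to 57.4 CPM and 35.0 to 78.4 CPM of it. Without Pax3 no gene of that list exceeded 6.49 CPM in any library, Msgn1 had no count in wt, and Tbx6 was at 0 in both wt libraries at 9.5 dpc.

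In that list 1 gene, Fgf8, was called higher between the libraries labelled Skp1aKO and wt at 9.5 dpc and 2, Fgf8 and Tbx6, for Skp1acont, and of the hindbrain list Egr2 was higher and Gbx2 lower for Skp1acont. Egr2, which marks rhombomeres 3 and 5, had 0.608 and 0.413 CPM under the label Skp1aKO, 0.773 and 1.82 in Skp1acont and 0 in both wt libraries at 9.5 dpc. Erythroid markers were lower in both comparisons for 5 of 8 genes, endothelial markers for 4 of 6 in Skp1aKO and 1 of 6 in Skp1acont (with Tie1 higher in both), and 1 of 6 neural crest markers, Ets1, was lower in Skp1aKO. The summed endothelial level, carried mostly by 1 gene that was not called, went the other way. It was 604 to 1124 CPM in the Skp1a-labelled libraries, and in wt 469 to 503 CPM in lot 1 and 183 to 196 in lot 2. The endothelial calls thus do not describe the list as a whole. Head mesenchyme markers had 2 of 8 higher and 1 lower in each comparison, and pan-neural markers 1 of 8 lower for Skp1aKO and 3 of 8 for Skp1acont. Over single libraries left out, the erythroid list had 4 to 5 lower for Skp1aKO and 3 to 5 for Skp1acont, with 0 higher. The other marker lists moved further. For Skp1aKO the pan-neural list had 2 higher and 5 lower without Skp1acont replicate 2, the midbrain and forebrain list 7 and 2, the trunk list 5 and 1, and the hindbrain list 3 and 0. Without wt replicate 2 the head mesenchyme, hindbrain, trunk and neural crest lists had 0 called in either comparison. For Skp1acont without its replicate 1, the midbrain and forebrain list had 6 higher and 5 lower, the trunk list 6 and 1 and the pan-neural list 0 and 6. For Skp1aKO the erythroid list had 5 lower with library totals and 7 with receptor scaling, whereas the hindbrain list had 3 higher and 0 lower with library totals against 0 higher and 2 lower with receptor scaling, and the trunk list 4 and 0 against 0 and 3. The part of other tissue, of depth and of the receptor background in the Hox differences between Skp1a-labelled and wt libraries was not tested beyond the scalings given, and the Skp1a label and the background cannot be told apart, since all 5 libraries with the label had more of it than all 6 without.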

How the data were processed

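Gene counts of 11 libraries were used as the authors deposited them, as whole-number counts per gene. RNA extraction used Qiagen RNeasy and poly(A) selection NEBNext, per the labels' protocols. Per the submitters' processing notes, Trim Galore 0.6.7 was used, with GRCm38 as genome build. For the aligner, the counting tool and any strand setting, the entry is: not given in the sources used here. The second library labelled Skp1acont PI was not analysed here.

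Counts were scaled by TMM and tested with edgeR 4.0.16 in R 4.3.3, by a quasi-likelihood F test in 1 fit of 6 groups, over the 33877 genes with a count in any library. Genes with a Benjamini-Hochberg adjusted p under 0.05 were called. The biological coefficient of variation was 36.1%. DESeq2 1.42.0, other scalings and filters, and leaving out single libraries were alternatives. The fit was tested on simulated data with known changes, with less spread than in these data and only in genes above a minimum count. It thus does not cover calls of Hox genes at few counts. Levels per kb used the union of exons in GENCODE M21, matched to 34761 rows. Counting intervals are exact 95% Poisson or binomial ones, and they and the limit of 3 counts for a 0 cover counting error only. Folds against that limit leave out the counting error of the other group. Values in each library are given for the 10 Hox genes of highest mean scaled CPM and those called in any comparison. The members, the lists and the receptor background were chosen with earlier results of these data known, and receptor scaling, the 90% limit and the non-legacy test were added after the data were seen. A result for 1 marker gene is not reported here.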

Additional observations from a re-analysis of the deposited data

How the results depend on the processing

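The number of Hox genes called higher against wt at 9.5 dpc was 7 for the libraries labelled Skp1aKO and 8 for Skp1acont. It was 17 and 17 with library totals, 3 and 2 with receptor scaling, and 0 and 1 after subtraction of the receptor median. It was 2 for Skp1acont with these groups alone, and the cause was not tested. Leaving out 1 library gave 0 to 19 for Skp1aKO, 0 to 21 for Skp1acont, 0 to 1 between Skp1aKO and Skp1acont, 0 to 5 between Skp1acont PI and wt PI, and 0 to 1 between wt at 9.5 and 9.0 dpc, where the fit of these groups alone also gave 1. Size factors, both filters on low counts and the non-legacy test stayed within 1.5 times the counts given. The share of all genes called can move between fits too and is not set beside these counts. They thus describe how far the calls moved and nothing particular to Hox genes. No called Hox gene changed direction in any alternative run. Hoxa9 and Hoxa7 kept their call for Skp1aKO in 13 and 12 of 15 alternatives, and Hoxd9 in 5 of 15. Same-numbered lots correlated in their deviations at 0.297 to 0.343 between wt groups and -0.01 to 0.180 where a Skp1a group was involved. In wt, lot 1 had 3392251 to 4007663 counts and lot 2 had 9217568 to 11607085, so lot goes with depth there. The numbers were not taken to pair libraries, and the main fit has no term for lot in any comparison. With lot as a replicate block, 9 Hox genes were called for Skp1aKO, 10 for Skp1acont and 0 in the other comparisons. A fit of Skp1acont PI and wt PI alone was not run.

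Against the receptor median, the Hox level was 0.826 and 0.842 in the libraries labelled Skp1aKO, 0.882 and 0.840 in Skp1acont, 0.913 in Skp1acont PI, 0.588 and 0.300 in wt PI, 0.705 and 0.267 in wt at 9.5 dpc and 0.943 and 0.619 in wt at 9.0 dpc. Against the lowest 90% of receptors it was 0.462, 0.494, 0.491, 0.481, 0.477, 0.308, 0.212, 0.300, 0.180, 0.387 and 0.410 in the same libraries. With the Hox median in place of the summed Hox level, over the summed level of all 1398 receptor genes, it was 0.0503 and 0.107 in the libraries labelled Skp1aKO, 0.0485 and 0.0924 in Skp1acont, 0.0477 in Skp1acont PI and 0 in the 6 wt libraries. Depth limits these results, since most Hox genes had under 10 counts in each library.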
